A study of Mus musculus with 12 samples.

Results

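A back-splice junction joins the end of one stretch of a transcript to a point upstream of it, and it is the mark by which circular RNAs (circRNAs) are counted. In a table of 16445 such junctions from mouse liver, 708 (4.31%) did not have both ends on exon edges of a single GENCODE M21 gene. These 708 junctions are described here. They were picked by position alone, without use of any level: a junction was taken when no gene had both an exon starting at its start and an exon ending at its end. Livers came from 12 mice, labelled as strain C57BL/8. All 12 were injected 2 times a week with 10% carbon tetrachloride (CCl4), a hepatotoxin that brings on fibrosis, in a volume of 10 µl for every 10 g of body weight, and were killed in week 8. The 6 Control mice received CCl4 and no drug; the 6 PZH mice were in addition dosed once daily in weeks 2 to 8 with PZH (Pien Tze Huang, a Chinese patent medicine), 25 mg/ml in water. Livers free of CCl4 were not analysed here, so neither group is a healthy one. Their age and sex are not given.

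Circularization uses the ordinary splicing machinery. A donor site (GT just after the exon) is joined to an upstream acceptor site (AG just before the exon), so junctions normally fall on exon edges. A junction off those edges can use a site that the annotation lacks, such as an exon inside an annotated intron, or a second AG or GT a few bases from the annotated one. Which of these holds for a given junction was not tested.

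Of the 708 junctions, 299 had their start on an exon edge of the host, 329 had their end on one, and 80 had neither. An end off the edges is called free below. Read along the host's strand, the free end was the acceptor side in 337 junctions, the donor side in 291 and both sides in 80. The nearest free end lay 2 bases from an edge of the same kind, so no junction was a member through an offset of 1 base. Hosts were 432 genes, 313 of them with 1 such junction, and 695 junctions had a protein-coding host. For 23 junctions more than 1 gene was a possible host.

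The bases at the free ends that carry the results are printed first, since they show which letters stand next to each junction. Bases were read from GENCODE M21 transcripts placed on GRCm38, so a window stops where no transcript covers it, and only 11 of the 479 free ends in introns could be read. Each line runs 5′ to 3′ on the host's strand. The first set holds acceptor ends close to an annotated exon start: capitals mark the AG directly before the first base of the circRNA, and a line that begins within 2 bases of the capitals begins at the annotated exon start.

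Kmt2a acceptor, chr9:44829253-44829271, minus strand: cAGtgggatgttaccaaac
Ehbp1 acceptor, chr11:22068488-22068506, minus strand: cAGcaagatgaagagagac
Atxn1 acceptor, chr13:45956557-45956575, minus strand: aAGtatcctgcaccgtgca
Dmgdh acceptor, chr13:93686928-93686947, plus strand: gcAGgtttaacaacttactt
Arl13b acceptor, chr16:62830794-62830813, minus strand: aaAGgtgacacttgtgatgg
Morc3 acceptor, chr16:93847277-93847303, plus strand: acatacgtcAGatgattaatttaacag
Mbtd1 acceptor, chr11:93905153-93905178, plus strand: acgaagacAGaacattcttcacaatc

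The second set holds donor ends inside an exon, shown because the levels of the Rad52 and Asph junctions are given below in full. Capitals mark the GT that directly follows the last base of the circRNA.

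Rad52 donor, chr6:119921005-119921034, plus strand: accagcatgttctagGTagcagaggtgtgt
Asph donor, chr4:9630758-9630787, minus strand: cagatggtgttgatgGTacgtcacagaatg
Afm donor, chr5:90545488-90545517, plus strand: gagaaaacccagcagGTtgttaccgccatg

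The third set holds both ends of junctions that touched no exon edge and did not read as splice sites of their host. Capitals mark AC in the place of the acceptor AG and CT in the place of the donor GT. These are the letters that GT and AG give when read from the other strand.

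Alb acceptor, chr5:90464096-90464125, plus strand: aacacaaagatgACaaccccagcctgccac
Alb donor, chr5:90467435-90467464, plus strand: tgctgccatggtgacCTgctggaatgcgca
Alb acceptor, chr5:90470777-90470806, plus strand: aacttggtcaaaACcaactgtgatctttac
Alb donor, chr5:90472060-90472089, plus strand: gaggctgcaagaaacCTaggaagagtgggc
Trf acceptor, chr9:103219832-103219861, minus strand: gaggacatgcctACattgcaggccagtgtg
Trf donor, chr9:103217448-103217477, minus strand: atcacctggaacaacCTgaaaggcaagaag

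All 319 free ends whose flanking bases could be read carried a splice-site pair of letters on one strand or the other. On the host's strand, 245 had AG before an acceptor or GT after a donor. The other 74 had AC or CT there and so had GT or AG on the opposite strand; they were the 2 ends of 37 junctions. None had neither. Over the 5288432 neighbouring base pairs in exons of the hosts, 7.65% were AG, 5.46% GT, 5.19% AC and 7.22% CT. Of 4296 readable ends of junctions on exon edges, 4257 (99.1%) had AG or GT on the host's strand. Of the rest, 8 acceptor and 30 donor ends had neither pair of letters, and 1 acceptor end had AC. Junctions on exon edges were thus listed without these letters as well. The circRNA caller and its filters are not stated, so whether it asked for these letters off the edges is not known.

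Where the free ends lay differed in scale between exons and introns. Among acceptor-side ends, 160 were in coding sequence, 21 in a 5′ UTR, 10 in exons of noncoding transcripts, 10 in retained-intron transcripts and 216 in introns. Among donor-side ends, 81 were in coding sequence, 3 in a 5′ UTR, 3 in a 3′ UTR, 9 in noncoding exons, 11 in retained-intron transcripts, 263 in introns and 1 outside the host. Ends inside exons were a median of 29 bases (acceptor) and 48 bases (donor) from the nearest edge of the same kind. Ends in introns were a median of 3592 and 2248 bases away, and the farthest was 44899 bases away. Of the 788 free ends, 730 were distinct, and 48 of these were used by 2 or more junctions, up to 4.

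**Figure D1:**
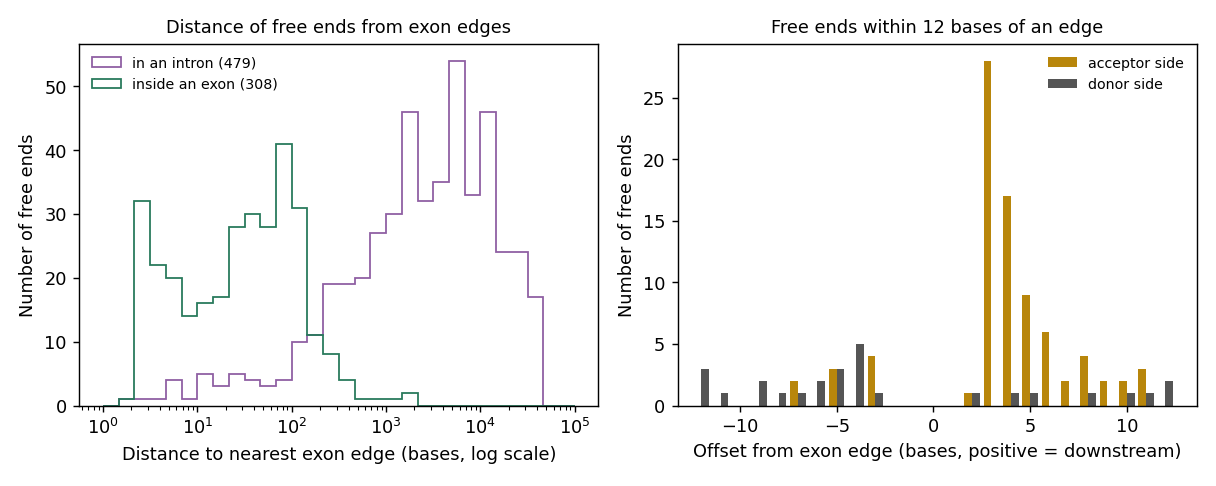
Left, number of free ends (vertical axis) by distance in bases to the nearest exon edge of the same kind (log axis), for ends inside exons and in introns; right, number of free ends by signed offset in bases for ends within 12 bases of an edge, acceptor and donor sides apart. The largest bar is the 28 acceptor ends 3 bases inside the exon, followed by 17 at 4 bases.

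A group of 92 junctions from 77 hosts had every free end within 10 bases of an annotated edge. On the acceptor side the offsets were uneven: 28 ends lay 3 bases inside the exon, 17 lay 4 bases inside, 9 lay 5 bases inside and 6 lay 6 bases inside, and only 1 lay 2 bases inside. On the donor side the most frequent offset was 4 bases before the annotated exon end, with 5 ends. The first set of sequences shows the form behind the offset of 3: the exon itself opens with a base and AG, as in Kmt2a, Ehbp1 and Atxn1. As a background, AG stood at bases 2 and 3 of 5.55% of the 8396 internal exon starts of the hosts, at bases 3 and 4 of 5.73% and at bases 4 and 5 of 5.16%. The exon starts that open this way were thus about as many for each of the 3 offsets.

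Most of these near-edge junctions were minor forms beside a junction at the annotated edge. A twin with the same fixed end and the annotated edge was in the table for 78 of the 92. The junction's mean was below that of its twin in 75 and above it in 3, and its median share of the pair was 3.06%. The Kmt2a, Ehbp1 and Dmgdh junctions below, and the Mbtd1 sequence above, were picked after their values were seen. Kmt2a, which encodes a histone methyltransferase, showed an intermediate case, with a mean of 3.46 SRPBM for the junction 3 bases in and 18.4 for the twin. SRPBM is the unit the table names; its formula is not stated, and in this field it stands for junction reads relative to mapped reads. Ehbp1, which encodes an endocytic adaptor, had 2.97 against 11.4 SRPBM. For Atxn1, whose free end lies in the 5′ UTR, the values were 2.51 and 26.0 SRPBM. Dmgdh, dimethylglycine dehydrogenase of liver mitochondria, had 1.48 and 9.42 SRPBM.

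Morc3, which encodes a nuclear ATPase, went the other way. Its junction from 5 bases inside an annotated exon start to the end of exon 7 (chr16:93847288-93853217) took 12.8, 21.4 and 24.4 SRPBM as lowest, median and highest of the PZH livers and 6.48, 19.5 and 28.4 of the Control livers. The groups overlapped over nearly their whole range. The twin at the annotated start was above 0 in 1 of 12 libraries, at 1.02 SRPBM. In the printed Morc3 stretch, the bases directly before this annotated start are ac and not AG. Whether that bears on the low twin was not tested. At the end of exon 7 the off-edge partner therefore held 95.4% of the signal in that library and 100% in every other.

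The most abundant of the 708 junctions was in Mug-ps1, a transcribed pseudogene of the murinoglobulins, which are plasma protease inhibitors made by the liver. It ran from the start of exon 7 to 4 bases before the end of an exon (chr6:122207897-122209106, 1210 bases). Its lowest, median and highest values were 199, 286 and 306 SRPBM in PZH and 191, 259.5 and 319 in Control. The means were 270.5 ± 38.7 and 254.8 ± 55.0 SRPBM (SD, n = 6 each), and the groups overlapped. It held 263 of the 629 SRPBM that the means of all 708 junctions add up to. A companion starting 4 bases further in and ending at the same donor had means of 9.04 ± 1.32 SRPBM (PZH) and 8.56 ± 2.89 SRPBM (Control; SD, n = 6 each).

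The murinoglobulin genes are close copies, and the printed stretch shows how close they are at this donor. Each line holds the last 20 bases before the junction and the next 10 bases of the spliced transcript. Capitals mark the 4 bases that the annotation of Mug-ps1 adds to the exon, and they begin with the GT.

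Mug-ps1 before the donor: tccctttcctccatatcaaaGTAAgtcaac
Mug1 before the donor: gctcttccctccatatcaaagtcaaccaca
Mug2 before the donor: gctcttccctccatatcaaagtcaaccaca

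The last 20 bases differ at 3 places between Mug-ps1 and both protein-coding copies. In Mug1 and Mug2 the same stretch ends exactly at the annotated end of exon 11. The first 20 bases of the circRNA, ctagacaacaatggctgcag, are the same in all 3 genes and open exon 9 of Mug1 and Mug2. The matching junction of exons 9 to 11 had no row in the table for Mug1 (chr6:121856284-121857497) or Mug2 (chr6:122035977-122037192). How the authors' counting placed reads that fit more than 1 copy is not stated in the labels, so the assignment of these reads to Mug-ps1 is uncertain.

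Other abundant junctions had a free end in an intron. In Etv6, an ETS-family transcriptional repressor, a junction from 22065 bases upstream of exon 3 to its end (chr6:134115220-134137417) took 9.93, 15.5 and 18.2 SRPBM as lowest, median and highest in PZH and 12.7, 16.3 and 27.4 in Control. All 12 libraries held it, and the groups overlapped. In Slc10a7, a member of the bile acid transporter family, the junction from the start of exon 2 to 216 bases past an exon end (chr8:78515586-78589249) took 8.89, 9.91 and 24.3 SRPBM in PZH and 10.1, 16.4 and 19.1 in Control. Of the 6 PZH livers, 5 were at or below 12.2 SRPBM and 1 was above all Control livers. In Usp6nl, a GTPase-activating protein for a Rab of early endosomes, a 608-base junction with its donor 516 bases inside the intron had means of 11.2 ± 3.59 SRPBM (PZH) and 10.8 ± 3.06 SRPBM (Control; SD, n = 6 each).

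Some abundant junctions were listed at 0 in single libraries, so their values are given by library and not as means. The Asph junction, with a donor in coding sequence 153 bases past an annotated exon end, came from the gene of aspartate beta-hydroxylase. It was listed at 0 in PZH replicate 1 and Control replicate 2, reached 9.70 to 22.3 SRPBM in the other 5 PZH livers, and 3.38 to 10.8 in the other 5 Control livers. In Hykk, hydroxylysine kinase, a junction of 388 bases (chr9:54917859-54918246) matched an annotated intron base for base, from the base after one exon to the base before the next. Other transcripts of the gene retain this intron. It took 4.71 to 12.6 SRPBM in PZH and was listed at 0 in Control replicate 2, with 7.05 to 16.4 in the other Control livers. Its ends are printed with the last 2 bases of the exon before the intron, and the first 2 of the exon after it, in capitals.

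Hykk start, chr9:54917845-54917874, plus strand: cactttaggagaAGgtgagaggaaagacta
Hykk end, chr9:54918232-54918261, plus strand: gtccttttttttcagGTtgtggagttcttt

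The intron opens with gt and closes with ag, so the AG and GT counted at this junction are exon bases and not the intron's own splice sites. In all, 4 of the 708 junctions matched a whole annotated intron of their host in this way. The other 3, in Cct4, Brd8 and Zfp68, were above 0 in 1, 1 and 4 libraries.

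In Klf12, a zinc-finger transcriptional repressor, the 2 most abundant off-edge junctions shared the fixed acceptor of exon 3 and had donors 274 and 9700 bases into the intron. The shorter was at 14.0, 8.48 and 6.77 SRPBM in PZH replicates 1, 4 and 5 and at 10.5, 15.1, 9.33, 21.2 and 16.4 in Control replicates 1, 3, 4, 5 and 6. The longer was at 10.1, 10.2 and 9.36 SRPBM in the same PZH livers and at 6.29 to 14.5 in the same Control livers. Both were listed at 0 in the same 4 libraries, PZH replicates 2, 3 and 6 and Control replicate 2. The most abundant Klf12 junction on exon edges (chr14:100109771-100149795) was above 0 in 10 libraries, including those 3 PZH libraries at 17.7 to 22.9 SRPBM, and was itself at 0 in Control replicates 2 and 5.

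Zeros beside high values were seen in other off-edge junctions too. Of the 708 junctions, 21 reached at least 10 SRPBM in some library. Of these, 14 were listed at 0 in at least 1 library and 7 in at least 6. The same count was not made for on-edge junctions, and the on-edge Klf12 junction above had such zeros as well. Whether the pattern is particular to off-edge junctions was therefore not tested. Xpo7, which encodes a nuclear exportin, and Eefsec, the elongation factor for selenocysteine, were picked out after their values were seen. The Xpo7 junction, whose acceptor lies 6 bases inside the exon, was at 19.2 and 18.6 SRPBM in PZH replicates 1 and 5 and listed at 0 in all 10 other livers. The Eefsec junction was at 15.2, 19.6 and 11.0 SRPBM in PZH replicates 1, 3 and 5 and listed at 0 in the other 9. Without a filter on low values, limma gave Eefsec a log2 fold change of 2.30 (SE 0.64) and an adjusted p of 0.126. For Xpo7 the same fit gave 1.65 (SE 0.62) and an adjusted p of 0.598. With a minimum of 3 libraries above 0, limma gave Eefsec 2.30 (SE 0.84) and an adjusted p of 0.651. Neither junction passed the threshold.

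**Figure D2:**
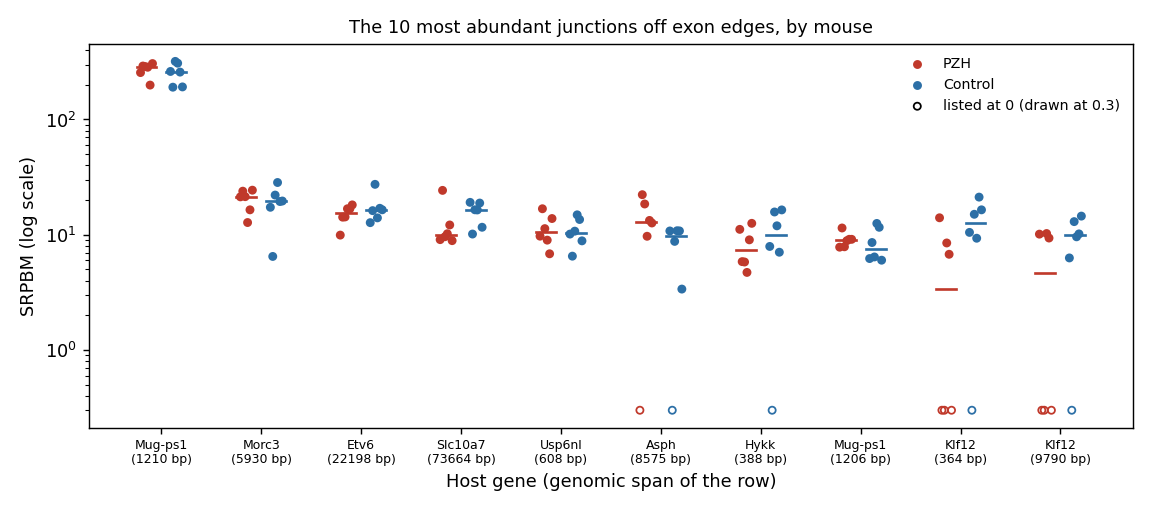
SRPBM (log axis) of the 10 junctions with the highest means, 1 point per mouse, PZH left and Control right of each gene, with lines at the group medians and open circles for libraries listed at 0. Mug-ps1 stands above all others at 191 to 319 SRPBM, and the 2 Klf12 junctions are at 0 in the same 4 libraries.

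As a class, the off-edge junctions were rarer and lower than those on exon edges in every liver. In a library, 18.2% ± 3.09 of them were above 0, against 30.7% ± 3.23 of the 15737 on-edge junctions (SD, n = 12 libraries). The difference of 12.5 percentage points had the same sign in 12 of 12 libraries (exact paired sign-change permutation test, 2-sided, p = 0.000488, the smallest this design allows). Where above 0, their median was 1.78 ± 0.154 SRPBM against 2.72 ± 0.186 (SD, n = 12 libraries), lower in 12 of 12 libraries (same exact test, p = 0.000488). Of the 708, 467 (66.0%) were seen in only 1 library, 67 in 6 or more and 11 in all 12. Of the on-edge junctions, 43.2% were seen in only 1 library, 3803 in 6 or more and 1078 in all 12. Libraries, not junctions, were the units of both tests, and both kinds of junction come from the same reads.

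**Figure D3:**
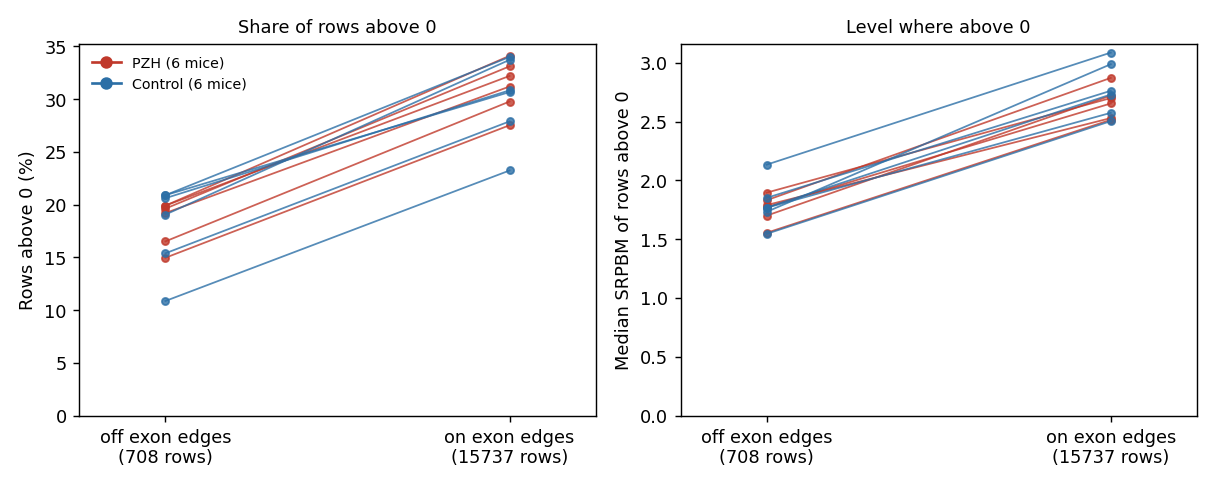
For each of the 12 livers (1 line each, coloured by group), percent of junctions above 0 (left) and median SRPBM of those above 0 (right) for the 708 junctions off exon edges and the 15737 on them. All 12 lines rise from the off-edge to the on-edge junctions in both panels.

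The 80 junctions without any edge match fell into 3 kinds by their flanking letters. In 23 of them the letters were those of the host's strand, at both ends in 18 and at the 1 readable end in 5. In 37 both ends had the letters of the opposite strand, and in 20 neither end could be read. Every readable junction with 1 end on an edge had the host's letters. The 37 opposite-strand junctions came from 22 genes: 10 from Alb (albumin), 5 from Trf (transferrin), 2 each from C3 (complement) and Lpin2, and 1 each from 18 others, among them Ahsg, Gc, Plg, Cps1 and Hal. Alb, Trf, C3, Ahsg, Gc and Plg encode plasma proteins secreted by hepatocytes, and Cps1 and Hal encode enzymes of their nitrogen and histidine metabolism. The other hosts with 1 were Calu, Edem1, Etfdh, Haus1, Lrp5, Mbnl2, Mpp6, Myo10, Paip2, R3hcc1l, Rrbp1, Sec31a and Slco1b2. Only 12 of the 37 had a host on the list of hepatocyte genes used below. In 35 of the 37, both ends lay in coding sequence. As few ends outside exons could be read, ends in exons were close to a condition for being counted in this kind. Of the 37, 34 were above 0 in a single library, as were 20 of the 23 with the host's letters. By place, 251 of the 708 junctions had their free ends in exons and 454 in introns, counting 1 that ended outside its host. The remaining 3 had 1 end in each, among them one in Mertk, a phagocytic receptor kinase, at 1.61 SRPBM in PZH replicate 3 and listed at 0 elsewhere.

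The most abundant opposite-strand junctions were 2 in Alb, both drawn in the third set of sequences. The one at chr5:90464110-90467449 was at 3.39, 2.26 and 1.86 SRPBM in PZH replicates 2, 3 and 4 and at 2.51 and 3.91 in Control replicates 3 and 6. The one at chr5:90470791-90472074 was at 4.47, 5.32, 1.44 and 1.08 SRPBM in Control replicates 1, 3, 4 and 6 and listed at 0 in all PZH livers. The highest Trf junction of this kind (chr9:103217463-103219847), also picked after its values were seen, was at 1.42 SRPBM in PZH replicate 1 and at 3.61, 2.23 and 0.953 in Control replicates 1, 5 and 6. Over all 37, the sum per library ranged from 1.65 to 6.15 SRPBM in PZH and from 2.77 to 12.2 in Control. The means were 4.20 ± 1.49 and 8.45 ± 4.02 SRPBM (SD, n = 6 each), and the groups overlapped. This sum was chosen after the values were seen. The exact permutation test gave it a 2-sided p of 0.0455, and an adjusted p of 0.864 over the 19 per-library values compared, so it did not pass. The number of such junctions above 0 was 2 to 4 in PZH and 2 to 7 in Control (exact permutation p = 0.268, 2-sided). The run of bases shared by both ends of a junction had a median length of 3 and a range of 0 to 6 in these 37 and likewise in the 17 host-strand junctions without an edge match where it could be read.

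Hosts with many off-edge junctions were of several kinds. Dpyd, the first enzyme of pyrimidine breakdown, had 15 off-edge and 33 on-edge junctions (31.2% off). Alb also had 15, beside 9 on-edge (62.5%), and Trf had 9 beside 6 (60.0%). Tasp1, a protease that cleaves KMT2A, had 9 beside 21 (30.0%), and Foxp1, a forkhead transcription factor, had 9 beside 15 (37.5%). Opposite-strand letters were read in 10 of 15 off-edge junctions of Alb and 5 of 9 of Trf, and in none of Dpyd, Tasp1 and Foxp1. Most free ends in introns could not be read, among them that of the most abundant Dpyd junction. The absence in Dpyd, Tasp1 and Foxp1 therefore does not show that their junctions had the host's letters. The most abundant Dpyd junction joined the end of exon 8 to an acceptor 2290 bases upstream of the nearest exon start, and had means of 3.88 ± 1.48 SRPBM (PZH) and 4.50 ± 1.88 SRPBM (Control; SD, n = 6 each). Only 13 of the 432 hosts had no on-edge junction.

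Lists of genes typical for liver cell types were used to describe the hosts. Of 30 hepatocyte genes, 12 had an off-edge junction, and 51 of the 266 junctions of the list (19.2%) were off-edge, 12 of them with opposite-strand letters. Over all junctions, 4.31% were off-edge. Dpyd and Alb, both on this list, had 15 off-edge junctions each, so much of the list's share came from these genes. Macrophage and immune genes had 3 off-edge and 30 on-edge junctions, and endothelial genes 3 and 46. Hepatic stellate cell genes had 0 off-edge and 15 on-edge junctions, and cholangiocyte genes 0 and 18. Only 4 of 18 stellate cell genes and 3 of 10 cholangiocyte genes had a junction of either kind. With so few junctions, a count of 0 shows no contrast between cell types. The hepatocyte off-edge junctions summed to 8.68 to 18.4 SRPBM per library in PZH and 9.40 to 33.8 in Control. The groups overlapped on each list that had an off-edge junction. Of the 30 hepatocyte genes, 25 had a junction of either kind, Alb among them. In tissue RNA, fewer cells of a type and less RNA per cell cannot be told apart.

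PZH was then compared with Control, to ask whether the off-edge junctions, singly or together, differed when the drug was added. None of the 67 that could be tested did so past the threshold. The test was limma on log2(SRPBM + 0.636) for junctions above 0 in at least 6 libraries, 2-sided, with Benjamini-Hochberg adjustment over all 3870 junctions tested and a threshold of 0.05. Of the 708, 67 (9.46%) entered it, against 24.2% of the on-edge junctions. Of these 67, 0 were called, where 0.0517% of all tested junctions were; 3 had an unadjusted p under 0.05 (4.48%), where 7.55% of all tested did. Of these 3, 1 was higher with PZH (4.55% of all tested were) and 2 were lower (3.0% of all tested). By the exact rank-sum test 0 were called and 2 had an unadjusted p under 0.05, where 6.87% of all tested did. Fold changes were above 0 for 34 and below 0 for 33 (54.3% above 0 over all tested). The median log2 fold change was 0.05, against 0.06 over all tested. In 0 of the 67 did the 6 PZH values lie wholly above or below the 6 Control values, where 0.672% of all tested did.

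The 10 junctions with the smallest unadjusted p in each direction, 5 higher and 5 lower, are named although none passed. The smallest adjusted p was 0.454, for Zfp644, a zinc-finger gene, at a log2 fold change of -1.70 (SE 0.56, 95% interval -2.86 to -0.54). Its junction was above 0 in 1 of 6 PZH livers, at 1.09 SRPBM, and in 5 of 6 Control livers, at 1.87 to 3.30. It met the filter of at least 6 libraries only because of the Control livers. Its fold change and interval are therefore no support for a difference. Lrmda, with both ends in introns, was above 0 in 2 PZH and 5 Control livers, at a log2 fold change of -1.27 (limma adjusted p = 0.647). The shorter Klf12 junction had a log2 fold change of -1.78 (limma adjusted p = 0.659).

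On the higher side, the log2 fold changes were 1.30 for Arl13b (limma adjusted p = 0.614), 1.31 for Sntb1 (0.654), 1.14 for Afm (0.659), 1.11 for Atxn1 (0.706) and 1.31 for Adgre1 (0.708). Arl13b encodes a small GTPase of cilia, Sntb1 a syntrophin, and Afm afamin, a plasma protein of the albumin family. The Arl13b and Afm junctions were each above 0 in 5 PZH livers and 1 Control liver. They met the filter of at least 6 libraries only because of the PZH livers, so their fold changes are no support for a difference. Adgre1 encodes an adhesion receptor that marks macrophages. Its junction, with an acceptor 434 bases upstream of an exon start, was above 0 in 5 PZH livers at 1.57 to 6.74 SRPBM and in 3 Control livers at 2.20 to 4.69. It is the only off-edge junction of the macrophage list that was tested, and whether macrophage content moved with it was not tested.

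**Figure D4:**
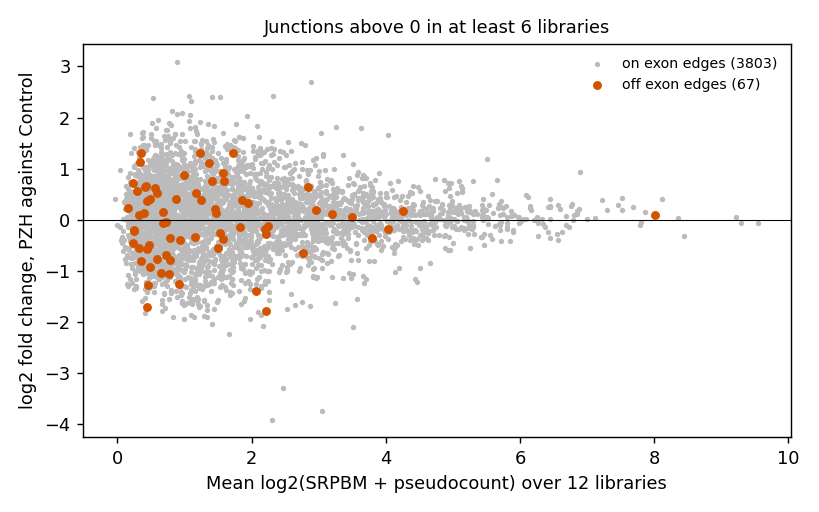
log2 fold change of PZH against Control by mean log2(SRPBM + pseudocount) for the 3870 junctions above 0 in at least 6 libraries, with the 67 off exon edges in orange. The 67 lie within the cloud of the others, 34 above and 33 below 0, and the rightmost is Mug-ps1.

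Summed per library, the off-edge junctions made up 1.76% ± 0.0494 of all back-splice signal with PZH and 1.74% ± 0.210 without it (SD, n = 6 each). The exact permutation test over all 924 assignments gave p = 0.859, 2-sided. The number above 0 was 130.0 ± 14.9 and 127 ± 28.7 (SD, n = 6 each); the same exact test gave p = 0.898. Control replicate 2 was the lowest of the 12 libraries, with 77 off-edge junctions above 0 that held 1.35% of the signal. That library also had the fewest junctions of all kinds above 0 (3735) and the lowest summed signal (28922 SRPBM). Without it, PZH minus Control was -0.0538 percentage points for the share (exact permutation p = 0.294, 2-sided) and -7.20 junctions (exact permutation p = 0.420, 2-sided). Neither difference passed the threshold with or without that library.

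At a fixed exon edge, each back-splice uses either an off-edge or an on-edge partner. The 628 junctions with 1 end on an edge used 531 fixed ends, and 458 of these also had an on-edge partner, for 553 junctions. Summed over these ends, the off-edge share was 5.23% ± 0.150 with PZH and 5.18% ± 0.656 without it (SD, n = 6 each), with p = 0.937 in the exact permutation test (2-sided). Without Control replicate 2 the difference was -0.204 percentage points (exact permutation p = 0.130, 2-sided). For 10 ends the off-edge junction was above 0 in all 12 libraries, and each was tested singly.

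Those 10 ends covered nearly the whole range of use. After Morc3, the share was highest for Mug-ps1, at 86.0% ± 4.96 (PZH) and 84.1% ± 3.56 (Control; SD, n = 6 each). For Etv6 it was 72.1% ± 10.4 and 71.6% ± 13.2. Traf3, an adaptor of TNF receptor signalling, had an off-edge donor 2476 bases past an exon end, with 47.7% ± 21.5 and 66.5% ± 28.8. At this end the PZH livers were spread from 20.5% to 71.5% and the Control livers from 31.6% to 100%. For Usp6nl the share was 50.7% ± 4.89 and 43.9% ± 11.9.

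The smallest p among the 10 ends was that of Rad52, a gene of homologous recombination, at the start of exon 10 (chr6:119920110-119921019, donor 9 bases inside the annotated exon end). The off-edge share was 2.30% ± 0.790 (PZH) and 3.33% ± 0.216 (Control; SD, n = 6 each). By library it was 1.57% to 3.60% in PZH and 3.09% to 3.70% in Control. The PZH liver at 3.60% lay among the Control livers, and the other 5 lay below them all. The exact permutation test gave p = 0.0152, 2-sided, and an adjusted p of 0.152 over the 10 ends, so the difference did not pass. The junction itself took 3.52, 4.31 and 8.86 SRPBM as lowest, median and highest in PZH and 7.29, 7.73 and 8.73 in Control, with a log2 fold change of -0.65 (SE 0.33, limma adjusted p = 0.658). Its twin at the annotated edges was at 169 to 272 SRPBM over all 12 livers. Another Rad52 junction, with the acceptor 3 bases inside exon 10 and the annotated end of exon 11, was above 0 in 3 PZH and 6 Control livers at a log2 fold change of -1.26 (limma adjusted p = 0.659). The 2 Rad52 junctions share the twin and so are not independent.

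**Figure D5:**
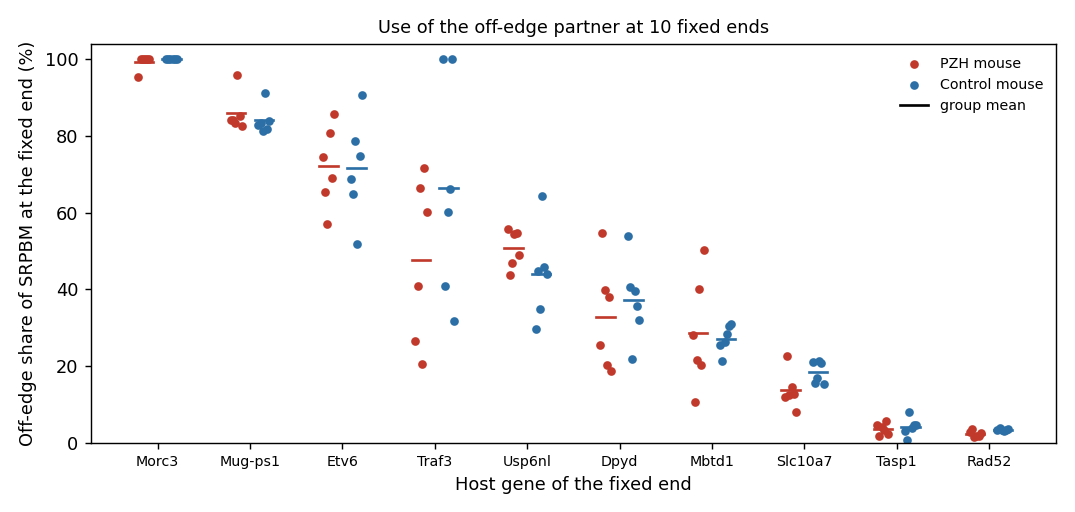
Off-edge share of the signal at 10 fixed exon ends (percent, vertical axis), 1 point per liver, with lines at group means. The share falls from about 100% in Morc3 to 2.30% (PZH) and 3.33% (Control) in Rad52, and the points of the groups overlap at every end.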

How the data were processed

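Back-splice junctions were measured by RNA sequencing of livers from 6 PZH and 6 Control mice, 1 library each. Each value deposited by the authors is a signal, which their table calls SRPBM; neither the circRNA caller nor the formula is stated. Per the labels' protocols, Trizol was used for RNA and a TruSeq kit for the libraries. Trim Galore and STAR were used with GRCm38 (mm10), per the submitters' processing notes. Read depth is not known; the libraries summed to 28922 to 41080 SRPBM, with 3735 to 5510 junctions above 0. Rare junctions are therefore imprecise, and a 0 was read as "listed at 0".

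Hosts, exon edges and bases came from GENCODE M21. A host with a matching edge was preferred, and a named protein-coding gene over a predicted one. The table gives no strand, so strand is the host's. Tests were limma 3.58.1 in R 4.3.3 on log2(SRPBM + 0.636), with a variance trend (pseudocount: median over libraries of the lowest value above 0), and exact permutation tests over 924 assignments of 6 of 12 libraries, or 4096 sign changes over 12 libraries, with Python 3.11.15, numpy 2.4.6, pandas 2.3.3 and scipy 1.17.1. Plots used matplotlib 3.10.9. The limma script was tested on simulated data. Fold changes on this scale understate changes of low junctions. The labels describe separate mice, and no common cage or day is given, so p-values measure the spread between these 12 samples.

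The junctions, lists and tests were chosen with earlier results of these data known. Named junctions were the 10 highest means, 5 per direction by smallest p, the 2 highest per class of place and flanking letters, the 5 hosts with most junctions, 5 shared ends, the 3 highest near an edge and 1 per list; others are said to be picked after their values were seen. The alternatives changed the pseudocount, the filter, the scaling and the edge tolerance, or added a replicate block, dropped the trend, used a rank-sum test or left out each library. Replicate numbers did not pair the samples.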

Additional observations from a re-analysis of the deposited data

Results flagged for a closer look

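Among 56 groups of 6 libraries examined, 5 had a library set apart from the other 5 by Dixon's criterion at the 95% level, which chance meets in about 1 group of 20. Control replicate 2 had an off-edge share at shared ends of 3.92%, where the other Control livers had 5.17% to 5.85%. The same library had an off-edge share of signal, leaving out the Mug-ps1 junction, of 0.695%, where the others had 1.03% to 1.17%. The second Mug-ps1 junction was at 11.4 SRPBM in PZH replicate 2, against 7.80 to 9.13 in the other PZH livers. The Etv6 junction was at 27.4 SRPBM in Control replicate 3, against 12.7 to 17.0. The Slc10a7 junction was at 24.3 SRPBM in PZH replicate 2, against 8.89 to 12.2.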

How the results depend on the processing

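No off-edge junction was called under any alternative run, and the smallest adjusted p ranged from 0.126 without a filter to 0.661. The count at an unadjusted p under 0.05 was 3 of 67 as reported (292 of 3870 over all junctions tested). With a minimum of 3 libraries it was 12 of 155 (504 of 6834), and without a filter 13 of 708 (524 of 16445). It was 7 of 67 without the variance trend (278 of 3870) and 5 of 67 with scaling by summed SRPBM (322 of 3870). Among junctions above 0 in all 12 libraries it was 1 of 11 (134 of 1089). On leaving out a library it was 1 to 5. The lowest came without Control replicate 1 (1 of 58, against 286 of 3610) or 6 (1 of 61, against 288 of 3616). In both of these settings the Zfp644 junction no longer met the filter. The lower share above 0 and the lower median of off-edge junctions held throughout, at -10.5 to -13.8 percentage points and at -0.912 to -1.02 SRPBM. The 3 summed differences between PZH and Control were not past the threshold in any setting, but their sign was not stable. The share of signal, 0.0241 percentage points higher in PZH, became -0.0235 with junctions above 0 in at least 6 libraries, -0.0280 as a share of junctions above 0, -0.0147 with ends within 10 bases counted as on the edge and -0.00456 without the Mug-ps1 junction. The number above 0 became -0.0280 percentage points when divided by all junctions above 0. The share at shared ends became -0.0346 within 10 bases and -0.0400 without the Mug-ps1 junction. The last 2 settings were chosen after seeing the data. On leaving out a library these 3 ranged from -0.0538 to 0.0676 percentage points, -7.20 to 7.63 junctions and -0.204 to 0.180 percentage points; Control replicate 2 turned all 3, and Control replicate 6 turned the number (-0.800). Beyond those libraries the cause was not tested.

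Same-numbered livers did not deviate together (r of -0.119 to 0.0261), and no library correlated best with its own number. With the replicate block no junction was called, and the difference in share was 0.0241 percentage points (exact permutation p = 0.969). Counting ends within 1 base as on the edge changed nothing, as no free end was that close. The share of off-edge signal by GT and AG letters was not run, since a genome was not used here and most intron ends could not be read. Most off-edge junctions are too rare to test: 467 were above 0 in 1 library, and for those the data set no limit on a difference.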
